A study of Danio rerio with 27 samples.

Results

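Claudins, cadherins and Epcam are the membrane proteins by which cells of an epithelium hold on to each other. Their transcripts were followed here in cells of adult zebrafish sorted by reporters as metaphocyte progenitors. The same sort was used for mutants, whose cell type markers differed as given below. Whether the sorted mutant cells are such progenitors was not tested. All rows of the expression table were taken whose symbol starts with cldn, starts with cdh followed by a digit, or is epcam. These were 60 of 32520 genes, made up of 34 claudin rows, 25 cadherin rows and epcam. Among the claudin rows, cldnd1a and cldnd1b carry the name of a claudin domain protein and are not claudins in the strict sense.

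Claudins are small membrane proteins that form the strands of tight junctions, where the set of claudins present decides which ions and solutes pass between cells. Classical cadherins bind cadherins of the neighbouring cell in the presence of calcium and are tied to actin through catenins at adherens junctions. Epcam is a glycoprotein of epithelial cells that in mammals binds claudin 7 and steadies it at the membrane. In zebrafish it is needed for the integrity of the skin. Metaphocytes are cells with a myeloid-like programme that live in skin, gill and gut and do not come from blood stem cells, so their progenitors can be asked how much of an epithelial adhesion programme they hold.

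The 27 libraries were made by the Smart-seq2 method, each from 30 cells sorted as positive for spic:EGFP and negative for mpeg1:DsRedx, with 23 cycles of PCR. All fish were adults of the strain Tg(spic:EGFP; mpeg1:DsRedx), so that both reporters were shared by every group. Epidermis gave 7 libraries of siblings and 7 of spic mutants, and gill gave 5 libraries of siblings and 8 of spic mutants; spic encodes an Ets-family transcription factor. The sources used here give neither the full genotype of the siblings nor the nature of the mutant allele. Whether each library stands for its own fish is not labelled, and the p-values therefore rest on a spread among libraries that may be technical in part. In such bulk samples, fewer cells of a type and less RNA per cell cannot be told apart.

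Levels are given in TPM, an abundance scaled by gene length to a fixed sum per library, which keeps no depth. Between 6469 and 10655 genes reached 1 TPM in a library. The targeted gene was lower in mutants: spic stood at 561 to 760 TPM in epidermis and 140 to 499.8 TPM in gill of siblings, against 7.37 to 125 TPM and 2.92 to 53.3 TPM in the same tissues of mutants. The macrophage gene mpeg1.1, whose reporter was used to exclude cells from the sort, was at 12.2 TPM or more in siblings and 3.56 TPM or less in mutants. In the tests described below, 4.13% of all genes tested rose and 8.69% fell in mutant epidermis, with a median difference of -0.27. In mutant gill 2.34% rose and 3.87% fell, with a median difference of -0.03. The counts of cell type markers stand beside these shares, but the lists were chosen with earlier results of these data known. A marker could also enter the tests through the group where it is high. The counts are therefore descriptive. Of 17 myeloid markers, 12 were tested and 9 fell in each tissue, with median sums of 4373 and 88.4 TPM in sibling and mutant epidermis and of 3420 and 407 TPM in sibling and mutant gill; csf1ra and ptprc were at 0 in every group. Of 15 neuroendocrine and sensory markers in the table, 14 were tested, and 12 rose in epidermis and 10 in gill. Their sum went from 25.1 to 284 TPM in epidermis and 54.2 to 1105 TPM in gill of siblings, and from 654 to 8511 TPM and 2877 to 6676 TPM in those tissues of mutants. Of 18 ionocyte markers, 13 were tested, and 2 rose in epidermis and 3 in gill, with median differences of 0.40 and 1.68. Their sum went from 273 to 517 TPM in epidermis and 323 to 759 TPM in gill of siblings, and from 408 to 2484 TPM and 651 to 10562 TPM in those tissues of mutants, highest in mutant gill 3; slc12a10.2 was at 0 in mutant epidermis and sibling gill. Of the 14 superficial keratinocyte markers, 6 to 8 had a group mean over 10 TPM, and their sum was 14984 TPM or more in every epidermal library and 5424 TPM or more in every gill library, while the 8 basal keratinocyte markers never summed to more than 86.7 TPM. Mutant epidermis 7 stood apart, with the lowest neuroendocrine sum of the mutants at 654 TPM. It also had the highest sum of the 4 mucous markers of any library, at 1172 TPM, where only agr2 had a mean over 10 TPM in its group. Mutant gill 6 had the highest sum of the 13 endothelial markers at 222 TPM. Of these 13, ecscr, kdrl, lyve1b and pecam1 were at 0 in every mutant gill library, and only esama had a mean over 10 TPM there. In mutant epidermis egfl7, fli1a, kdr, kdrl, lyve1b and stab2 were at 0 in every library, and only ecscr had a mean over 10 TPM. The part of these other cell types in the results on adhesion genes was not tested.

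Most adhesion genes of these families were absent or rare, and 5 genes made up a set present in every library. These 5, epcam, cldnb, cldnh, cldn7b and cdh1, reached 10 TPM in all 27 libraries. Another 28 members reached 10 TPM in some libraries and 27 in none, of which 18 never reached 1 TPM and 11 were listed at 0 throughout. Between 8 and 17 members reached 10 TPM in a library. Together the 60 genes held 0.533% to 2.01% of all TPM.

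**Figure D1:**
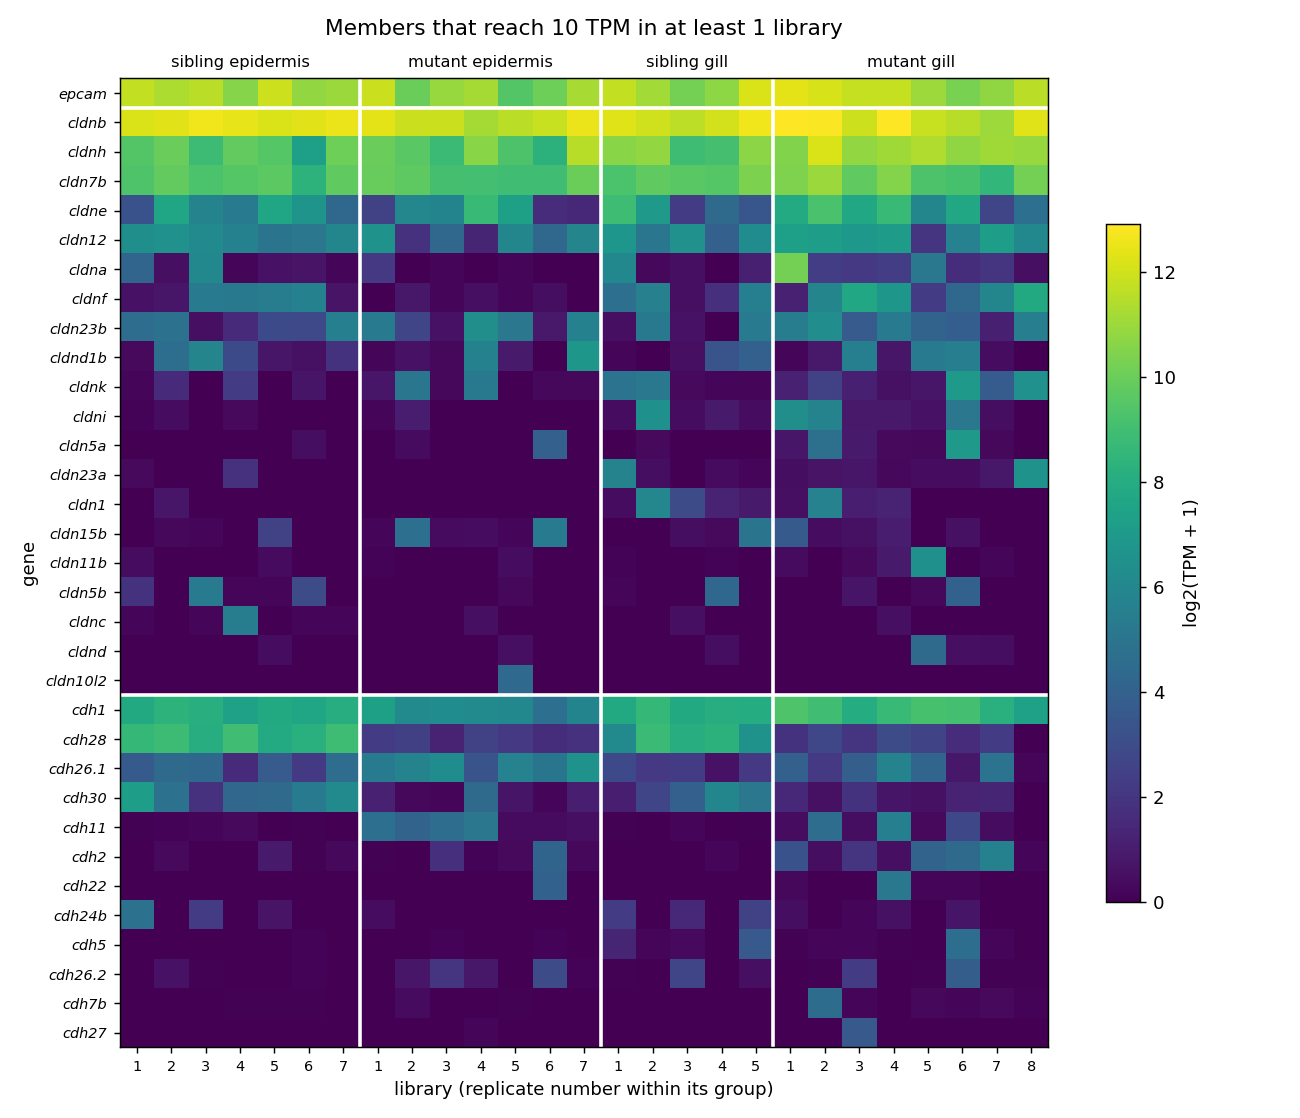
Level of the 33 members that reached 10 TPM in at least 1 library, with 1 row per gene and 1 column per library, coloured by log2(TPM + 1). The 5 genes epcam, cldnb, cldnh, cldn7b and cdh1 are at 10 TPM or more in all 27 columns, cdh28 is low in the mutant columns, and most other rows are high in scattered libraries only.

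The most abundant member was cldnb, a claudin of many zebrafish epithelia whose promoter is widely used to mark the lateral line. It stood at 4656 to 6305 TPM in sibling epidermis (median 5167), 2287 to 6027 TPM in mutant epidermis (median 3764) and 2073 to 7718 TPM in mutant gill (median 4397). The 5 sibling gill libraries gave 5043.7, 4048.0, 3163.5, 4145.1 and 6369.5 TPM. The ranges of all 4 groups overlapped, and no library fell under 2000 TPM.

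The adhesion gene epcam came next, below cldnb in 26 of 27 libraries. It ranged from 1493 to 3910 TPM in sibling epidermis (median 2541), from 709.5 to 3714 TPM in mutant epidermis (median 1950) and from 1291 to 5420 TPM in mutant gill (median 3252). In sibling gill it stood at 3439.6, 2252.9, 1182.3, 1683.5 and 4619.1 TPM. In these bulk samples epcam was thus at a level far above cdh1, the gene of E-cadherin, which was lower than cldn7b in every library. Which of the sorted cells held the transcripts was not tested. Per 100 TPM of epcam, cdh1 had a median of 10.7 TPM (siblings) and 4.0 TPM (mutants) for epidermis, and of 15.5 TPM (siblings) and 12.4 TPM (mutants) for gill.

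The claudin genes cldnh, also named cldn3c, and cldn7b, a counterpart of the mammalian claudin 7 that binds Epcam, followed. The level of cldnh was 155 to 1067 TPM in sibling epidermis (median 720), 313 to 2918 TPM in mutant epidermis (median 791) and 1395 to 4700 TPM in mutant gill (median 2050). The sibling gill libraries held 1568.4, 1803.4, 476.3, 557.4 and 1646.3 TPM of it. Neighbours in the order of levels were not always separable: epcam was above cldnh in 22 of 27 libraries and cldnh above cldn7b in 19, while epcam was above cldn7b in all 27.

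For cldn7b the values were 326 to 894 TPM in sibling epidermis (median 733), 494 to 1030 TPM in mutant epidermis (median 559) and 376 to 2029 TPM in mutant gill (median 1012), and the sibling gill libraries gave 617.4, 867.5, 768.3, 726.4 and 1329.1 TPM. All 4 ranges overlapped. The 3 leading claudins cldnb, cldnh and cldn7b made up 85.8% to 98.5% of the claudin TPM of a library. The share of cldnb had medians of 75.3% (siblings) and 68.5% (mutants) for epidermis, and of 66.6% and 52.2% for gill. That of cldnh had medians of 11.5% and 14.2% for epidermis and of 17.2% and 27.5% for gill. These shares depend on each other within a library and were not tested.

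**Figure D2:**
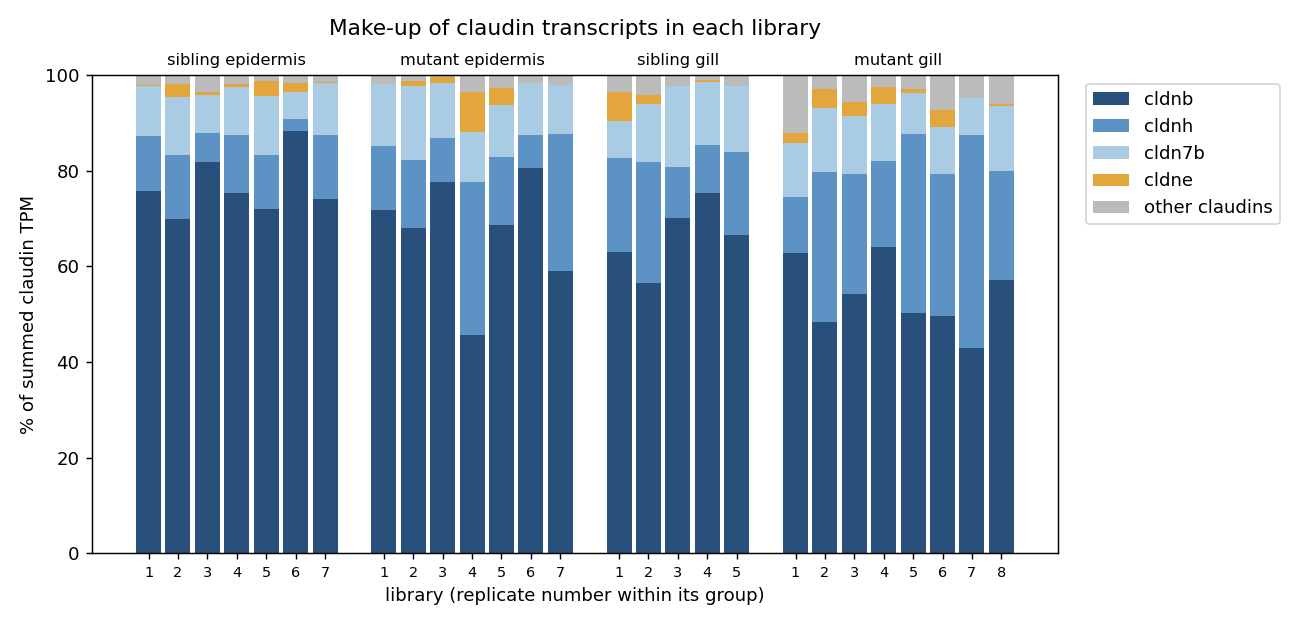
Make-up of the claudin transcripts of each library, in percent of the summed TPM of the 34 claudin rows, with 1 bar per library and colours for cldnb, cldnh, cldn7b, cldne and all others. The 3 lowest colours fill 85.8% to 98.5% of every bar, and the share of cldnb has a median of 75.3% in sibling epidermis and of 52.2% in mutant gill.

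Changes were tested with limma on log2(TPM + 1) across all genes that reached 1 TPM in 5 or more libraries, with Benjamini-Hochberg adjusted p-values over 13465 genes and a threshold of 0.05. Of the members, 24 passed this filter, namely 14 claudin rows, 9 cadherins and epcam. The other 36 were not tested; 11 of them reached 10 TPM in some library. The filter uses the same values as the tests, so a gene high in 1 group only, member or not, could pass through that group. A change is given as a difference of mean log2(TPM + 1), which understates the change of genes near 0.

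The question in epidermis was which adhesion genes differed in spic mutants. Of the 9 cadherins tested, cdh1, cdh28 and cdh30 fell and cdh11 rose, and the others did not pass. The gene cdh11 entered the test only through mutant libraries, and with no filter on low genes it did not pass (limma, adjusted p = 0.0806). No claudin and not epcam passed the test. The 4 calls among 24 members are 16.7%, against 12.8% of all genes tested, so the share is close to the background. By direction, 1 member rose and 3 fell, where 4.13% of all genes rose and 8.69% fell. The median difference was -0.41 over the members and -0.27 over all genes. With quantile normalization 3 rose, cdh11, cdh26.1 and cldn17, and 3 fell. With each library shifted to the same median 6 rose and 2 fell, and that shift moved the median of all genes from -0.27 to 0.91. The 6 were cdh11, cdh26.1, cdh26.2, cldn17, cldn7b and cldnh.

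E-cadherin, the classical cadherin of epithelia, was encoded by cdh1 (ENSDARG00000102750) and stood at 167 TPM in the lowest, 229 TPM in the middle and 320 TPM in the highest sibling library of epidermis. In mutants the lowest, median and highest were 25.2, 68.1 and 161 TPM. All 7 mutants lay below the lowest sibling; 5.64% of all genes tested had groups that did not overlap. The sibling mean was 239 ± 51.4 TPM and the mutant mean 75.0 ± 41.7 TPM (SD, n = 7 each), a difference of -1.80 (SE 0.40, 95% interval -2.62 to -0.99, limma, adjusted p = 0.00171), with 31.4% of the sibling mean left.

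The fall of cdh1 passed the test in all 14 fits without 1 library, with an adjusted p of 0.00580 at most, and without mutant epidermis 7 the difference was -1.77. Against the median of all genes it was -1.53. Where each library was shifted to the same median over the genes tested, the difference was -0.62 and no longer passed (adjusted p = 0.335).

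The gene cdh28 (ENSDARG00000104332) stood at 236 TPM in the lowest, 387 TPM in the middle and 497 TPM in the highest sibling library of epidermis. In mutants it was at 1.40, 3.36 and 4.71 TPM in the same places. Every sibling library was far above every mutant library. The sibling mean of 373 ± 108 TPM compares with 3.20 ± 1.21 TPM in mutants (SD, n = 7 each), which left 0.858%, a difference of -6.48 (SE 0.60, limma, adjusted p = 1.35e-09). Per 100 TPM of cdh1, cdh28 had a median of 152 TPM in sibling and 5.18 TPM in mutant epidermis.

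The neighbouring gene of cdh28 on the assembly GRCz12tu is cdh30 (ENSDARG00000104440). It varied more among siblings of epidermis, with 2.62 TPM in the lowest, 28.0 TPM in the middle and 149 TPM in the highest library, and was at 0.140, 0.670 and 21.1 TPM in mutants. The groups overlapped through mutant epidermis 4, at 21.1 TPM, while the other 6 mutants were below every sibling. The difference was -3.72 (SE 0.87, limma, adjusted p = 0.00286), and the means were 47.1 ± 49.8 (SD, n = 7) and 3.52 ± 7.76 TPM (SD, n = 7). Without sibling epidermis 1 and mutant epidermis 4, the highest library of each group, the means were 30.1 and 0.593 TPM. The sources used here do not say how reads that match both neighbours were shared out.

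The gene of a cadherin of mesenchymal cells, cdh11 (ENSDARG00000021442), was the member that rose. No sibling library of epidermis had more than 0.263 TPM. Of the mutants, 4 had 16.0 to 34.0 TPM and the other 3 only 0.283 to 0.453 TPM, just above the siblings. The sibling mean was 0.0837 ± 0.0902 TPM and the mutant mean 14.2 ± 14.0 TPM (SD, n = 7 each), a difference of 2.72 (SE 0.87, limma, adjusted p = 0.0340). The gene reached 1 TPM in 7 libraries, 4 of mutant epidermis and 3 of mutant gill, so it entered the test only through the groups where it is high, and with no filter on low genes it did not pass (adjusted p = 0.0806). The call held in 3 of 14 fits without 1 library, with an adjusted p of 0.0826 without mutant epidermis 4, and of 0.168 without the 3 libraries with the fewest detected genes. Those 3 included mutant epidermis 2 and 4, both high in cdh11. In mutant gill cdh11 was at 5.88 TPM or more in 3 of 8 libraries and at 0.375 TPM or less in the others, a difference that did not pass (1.75, limma, adjusted p = 0.308). In the 4 high libraries of mutant epidermis 9 fibroblast markers summed to 0.136 to 1.28 TPM. In mutant epidermis 6, low in cdh11, they summed to 75.7 TPM. In the 3 high libraries of mutant gill they summed to 4.31 to 46.5 TPM. The part of fibroblasts in cdh11 was not tested.

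Neither epcam nor a claudin passed the test in epidermis. The mean of epcam (ENSDARG00000040534) was 2592 ± 892 (SD, n = 7) in siblings and 1875 ± 1043 TPM (SD, n = 7) in mutants, a difference of -0.59 with a 95% interval of -1.29 to 0.10 (limma, adjusted p = 0.292). That of cldnb was 5326 ± 600 against 3996 ± 1293 TPM (SD, n = 7 each), a difference of -0.47 (-0.96 to 0.01, limma, adjusted p = 0.215), and 5 of 7 mutants lay below the lowest sibling. Under the shift of each library to the same median both differences turned positive, at 0.59 for epcam and 0.71 for cldnb, where all genes had a median of 0.91. The same shift called cldnh (1.65, limma, adjusted p = 0.00707) and cldn7b (1.19, limma, adjusted p = 0.0386) as higher. In the unshifted values the difference of cldn7b was 0.00 (-0.67 to 0.68, limma, adjusted p = 0.998) and that of cldnh was 0.47 (-0.40 to 1.34, limma, adjusted p = 0.552). A miss of the threshold does not show that these levels were alike.

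A claudin with an on-and-off pattern was cldnf (ENSDARG00000043133). In sibling epidermis 4 libraries held 36.4 to 49.9 TPM and 3 held 0.533 to 0.714 TPM. All 7 mutant libraries held 0.791 TPM or less, so the groups overlapped through the 3 low siblings. The difference of -3.05 (SE 1.09, limma, adjusted p = 0.0606) did not pass the threshold. It passed with a pseudocount of 0.1 (adjusted p = 0.0148), with a stricter filter on low genes (0.0455) and with the epidermal libraries alone (0.0482).

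In gill, the same comparison of mutants with siblings called 2 members, 8.33% of 24 against 6.21% of all genes tested. The gene cdh28 fell and cdh2 rose, where 3.87% of all genes fell and 2.34% rose. The median difference was 0.52 over the members and -0.03 over all genes. With each library shifted to the same median 3 members rose and 1 fell, with the median of all genes at 0.83, and after centring on genes present in every library, an alternative added after seeing the data, none rose and 2 fell.

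The sibling gill libraries held 70.0, 451.9, 262.3, 313.3 and 98.3 TPM of cdh28, and the 8 mutants 0 TPM in the lowest, 3.33 TPM in the middle and 6.86 TPM in the highest. All 8 mutants were below the lowest sibling, and 3.54% of all genes tested had groups that did not overlap. The sibling mean was 239 ± 158 TPM (SD, n = 5) and the mutant mean 3.68 ± 2.22 TPM (SD, n = 8), leaving 1.54%, a difference of -5.57 (SE 0.64, limma, adjusted p = 1.97e-07). This call held in every fit without 1 library and under every alternative, in gill as in epidermis. In both tissues the myeloid sum fell with it, as given above, and the part of that in the result was not tested.

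The sibling gill libraries of cdh30 held 1.09, 5.59, 14.7, 60.7 and 33.7 TPM and the mutants up to 2.70 TPM (median 1.06). Of the siblings 4 lay above every mutant and 1 within the mutant range. The difference of -2.78 (SE 0.92, limma, adjusted p = 0.0678) did not pass. It did without sibling gill 1 (-3.46, adjusted p = 0.0235) and with centring on genes present in every library (0.0451).

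N-cadherin, a classical cadherin of neural and mesenchymal cells, is encoded by cdh2 (ENSDARG00000018693). It was listed at 0 in 4 of 5 sibling gill libraries and at 0.115 TPM in sibling gill 4. In the 8 mutants it ranged from 0.172 to 49.7 TPM (median 5.60), all above the siblings. The difference was 2.54 (SE 0.80, limma, adjusted p = 0.0491), close to the threshold. The gene reached 1 TPM in 7 libraries, all of mutants and 5 of them of gill, so it entered the test only through the groups where it is high, and with no filter on low genes it did not pass (adjusted p = 0.0984). The call held in 4 of 13 fits without 1 library, and the adjusted p was 0.0988 without sibling gill 4 and 0.0832 without mutant gill 6, the library with the highest endothelial sum. The mutant mean was 12.4 ± 17.0 TPM (SD, n = 8) and 7.05 TPM without mutant gill 7. In epidermis cdh2 was over 1 TPM in 2 mutants, with 17.1 TPM at most, and in no sibling.

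No claudin passed the test in gill. The mean of cldnh was 1210 ± 639 (SD, n = 5) in siblings and 2324 ± 1032 TPM (SD, n = 8) in mutants, a difference of 1.06 (95% interval 0.13 to 1.99, limma, adjusted p = 0.184), and 6 of 8 mutants lay above the highest sibling. Under the shift of each library to the same median the difference was 1.91 (adjusted p = 0.00670), of which the median of all genes made up 0.83. For cldnb the difference was 0.03 (-0.49 to 0.55, limma, adjusted p = 0.965) and for cldn7b 0.15 (-0.56 to 0.87, limma, adjusted p = 0.862). That of epcam was 0.27 (-0.47 to 1.01, limma, adjusted p = 0.745), with means of 2635 ± 1392 (SD, n = 5) and 3124 ± 1401 TPM (SD, n = 8).

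For cdh1 no difference was called in gill. Siblings held 232.2, 382.4, 224.9, 261.1 and 256.3 TPM and mutants 169 to 658 TPM (median 470). The groups overlapped, with means of 271 ± 63.9 (SD, n = 5) and 428 ± 171 TPM (SD, n = 8). The difference was 0.56 (95% interval -0.31 to 1.43, limma, adjusted p = 0.516). With each library shifted to the same median it was 1.41 and passed (limma, adjusted p = 0.0494), where all genes had a median of 0.83.

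**Figure D3:**
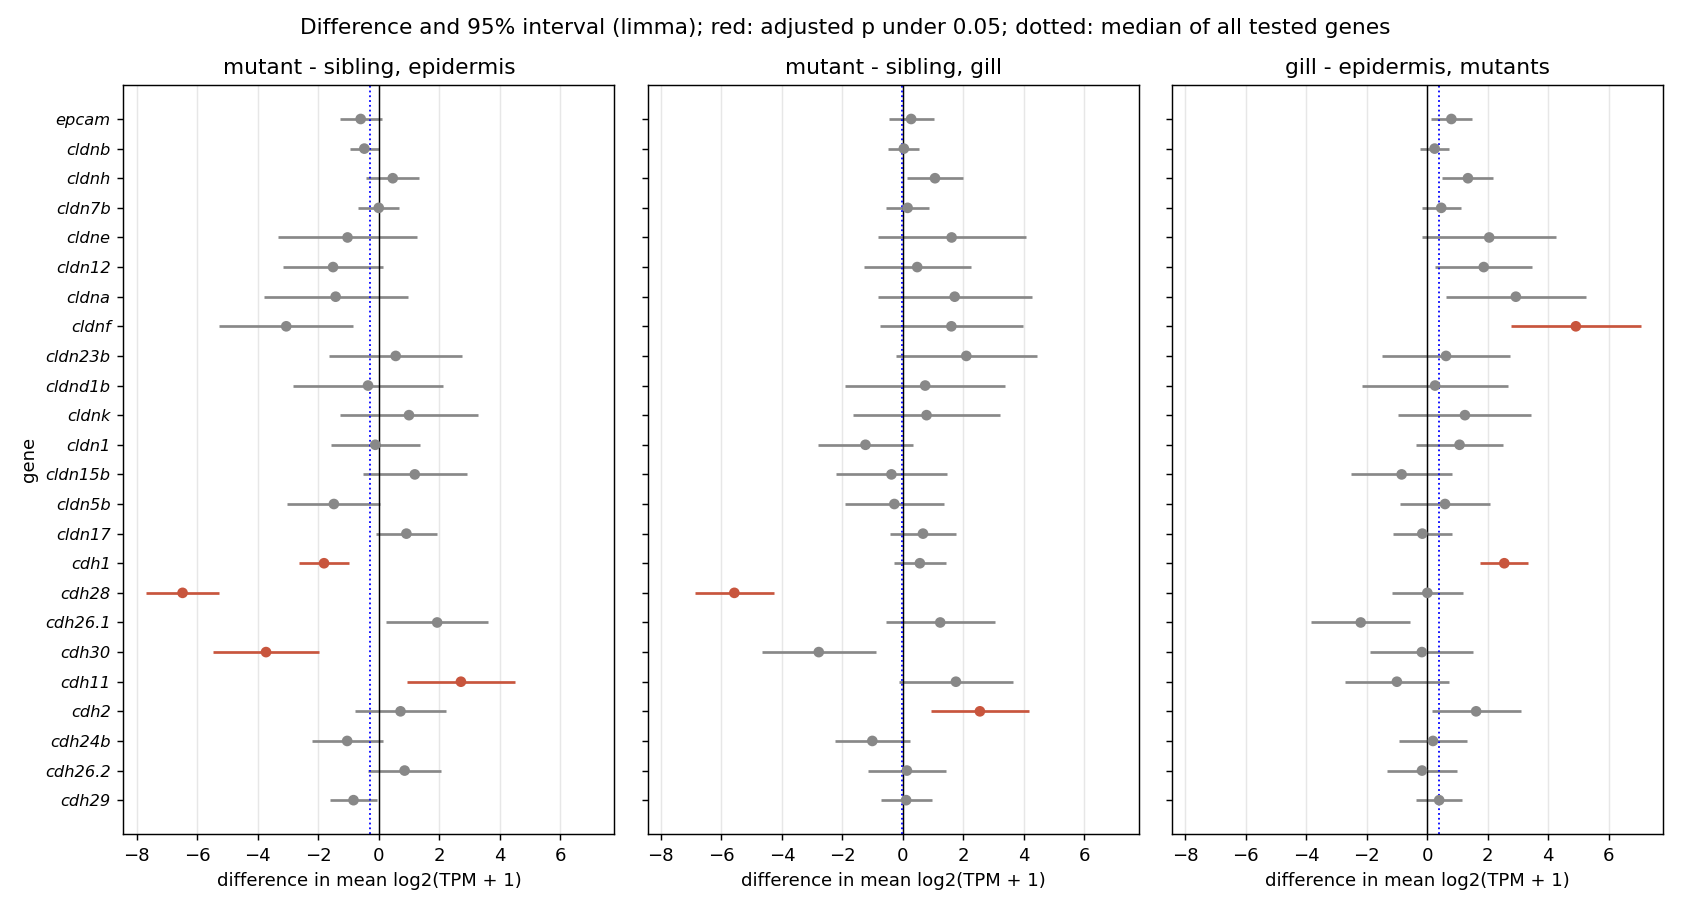
Difference of mean log2(TPM + 1) with its 95% interval for the 24 tested members, in 3 panels for mutant minus sibling epidermis, mutant minus sibling gill, and gill minus epidermis among mutants. Red marks an adjusted p under 0.05 and the dotted line is the median of all genes tested; cdh28 lies at -6.48 and -5.57 in the 2 mutant panels, and cdh1 at -1.80, 0.56 and 2.55 across the 3 panels.

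The difference of the mutant effect between tissues was tested as an interaction, the gill effect minus the epidermal effect. No member passed (limma), where 0.0594% of all genes did, 0.0371% upward and 0.0223% downward; cdh1 and cldnf were under 0.05 before adjustment. For cdh1 the interaction was 2.36 (SE 0.58, 95% interval 1.18 to 3.55, unadjusted p = 0.000282, adjusted p = 0.0990). It passed without mutant gill 8 (adjusted p = 0.0470) and in no other of the 27 fits without 1 library. For cldnf it was 4.65 (limma, adjusted p = 0.260). The fall of cdh1 in epidermis is therefore not shown to differ between the tissues at the threshold used.

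Which adhesion genes the progenitors of each tissue hold was compared first in siblings. No member differed between gill and epidermis (limma), where 0.958% of all genes tested did, 0.631% higher and 0.327% lower in gill, and 1.88% had groups that did not overlap, none of them members; the median difference was -0.09 over the members and 0.12 over all genes. The single member under 0.05 before adjustment was cldn1, which falls outside the rule for named genes and was chosen after its values were seen. It was listed at 0 in 6 of 7 sibling epidermis libraries and at 0.697 TPM in the other, and stood at 0.359, 62.3, 6.63, 1.36 and 0.900 TPM in sibling gill, a difference of 2.20 (limma, adjusted p = 0.304).

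Among mutants, 2 members were higher in gill than in epidermis, cdh1 and cldnf, and none was lower. With quantile normalization and with each library shifted to the same median, 2 were higher and 1, cdh26.1, was lower. The main count is 8.33% of 24, against 4.23% of all genes tested, of which 3.4% were higher and 0.824% lower in gill. The median difference was 0.53 over the members and 0.39 over all genes. These libraries also enter the comparisons with siblings, so the values are not independent of those given above. Of 9 tested superficial keratinocyte markers 5 were lower in gill among mutants, 5 also among siblings, and none was higher. Of 14 tested desmosome genes, described below, 3 were lower in gill among mutants and 1 among siblings. Of 13 tested ionocyte markers 2 were higher in mutant gill. The part of these differences in cdh1 and cldnf was not tested.

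The mutant gill level of cdh1, 169 to 658 TPM, lay above the mutant epidermis level of 25.2 to 161 TPM in every library. The mean was 5.71-fold higher in gill, a difference of 2.55 (SE 0.39, limma, adjusted p = 0.000124), whereas in siblings the difference between tissues was 0.18 (limma, adjusted p = 0.998). For cldnf the 8 mutant gill libraries spanned 1.31 to 226 TPM (median 58.7), all above the highest mutant epidermis library at 0.791 TPM. The difference was 4.91 (SE 1.06, limma, adjusted p = 0.00481); 1.05% of all genes tested did not overlap between these groups. The sibling gill libraries of cldnf held 25.1, 48.8, 0.453, 2.33 and 47.5 TPM, again in separate high and low values. Both calls held in all 15 fits without 1 library and under all 11 alternatives. The level of cldnh was also higher in mutant gill, by 1.35, without passing (limma, adjusted p = 0.0560). It passed with a pseudocount of 0.1 (0.0390), with the stricter filter (0.0473) and with the replicate number as a block (0.0171). It also passed in 3 of 15 fits without 1 library. The adjusted p was 0.0137 without mutant epidermis 7, 0.0440 without mutant epidermis 4 and 0.04999 without mutant gill 1.

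Other members ranged from genes present in most libraries to genes seen in few. At 10 TPM or more, cldn12 was found in 24, cldne in 20 and cdh26.1 and cldn23b in 16 of 27 libraries. The claudin cldne, which lies beside cldnf, cldna and cldnj on GRCz12tu, varied widely within groups, from 8.54 to 199.6 TPM and 1.71 to 411 TPM in epidermis of siblings and mutants, and from 3.83 to 483 TPM and 5.44 to 599.9 TPM in gill. Apart from cldne, the members named here fall outside the rule for named genes and were chosen after their values were seen. The claudin cldna had a mean of 153 TPM in mutant gill, but 7.43 TPM without mutant gill 1, which alone held 1171 TPM. Of the endothelial junction genes, mutant gill 6 had 24.4 TPM of cdh5, the gene of VE-cadherin, and 125.0 TPM of cldn5a and 15.3 TPM of cldn5b, genes of endothelial claudins. The same library had the endothelial marker sum of 222 TPM, with ecscr, kdrl, lyve1b and pecam1 at 0. The part of endothelial cells in these values was not tested. Mutant epidermis 6, with the next sum at 95.3 TPM, had 14.4 TPM of cldn5a and 0.108 TPM of cdh5. These genes also appeared apart from each other: cldn5b at 38.0 TPM in sibling epidermis 3, whose endothelial sum was 0.735 TPM, and at 19.6 TPM in sibling gill 4, cldn5a at 26.5 TPM in mutant gill 2, and cdh5 at 11.3 TPM in sibling gill 5. The claudin cldnk, known from myelinating glia in zebrafish, stood at 126 TPM in mutant gill 6 and 92.7 TPM in mutant gill 8, at 36.0 and 32.5 TPM in mutant epidermis 4 and 2, and at 34.6 and 28.9 TPM in sibling gill 2 and 1.

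The cadherin cdh26.1 had means of 13.3 ± 8.54 (SD, n = 7) in sibling epidermis and 51.1 ± 29.2 TPM (SD, n = 7) in mutants, and 6 of 7 mutants lay above the highest sibling. The difference of 1.93 did not pass (limma, adjusted p = 0.129), but did with quantile normalization and with each library shifted to the same median. Levels in gill were 3.48 ± 2.0 (SD, n = 5) in siblings and 16.6 ± 17.9 TPM (SD, n = 8) in mutants. The claudin cldn12 was over 10 TPM in all sibling libraries, at 14.5 to 109 TPM, and stood between 1.48 and 3.01 TPM in 2 libraries of mutant epidermis and 1 of mutant gill, without a call. The claudin cldn17 stood at 0.185 to 1.82 TPM in sibling and 1.69 to 3.55 TPM in mutant epidermis, with 6 of 7 mutants above the highest sibling. In gill it stood at 0.571 to 1.33 TPM in siblings and 1.04 to 2.96 TPM in mutants, with 7 of 8 above. In the main fit cldn17 passed in neither tissue. In epidermis it passed with quantile normalization and with each library shifted to the same median. These genes were chosen after their values were seen.

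The partners of these adhesion genes were read from lists of junction genes, which were chosen with earlier results of these data known. Their counts stand beside a background of 4.13% of all genes tested that rose and 8.69% that fell in mutant epidermis, and of 2.34% and 3.87% in mutant gill. Of 25 tested genes of tight junction partners, 1 rose and 3 fell in mutant epidermis, with a median of -0.20 against -0.27 over all genes, and none passed in gill, where the median was 0.20 against -0.03. The scaffold gene magi3b rose from 0.257 ± 0.324 to 67.9 ± 77.9 TPM (SD, n = 7 each), a difference of 5.04 (limma, adjusted p = 4.12e-05), and its groups did not overlap, at 0.938 TPM or less in siblings and 6.27 TPM or more in mutants. All epidermal mutants and no epidermal sibling reached 1 TPM of magi3b, so it could enter the test through the group where it is high. The gene tjp2b, whose product ZO-2 ties claudins to actin, fell from 80.6 ± 34.8 to 9.15 ± 14.3 TPM (SD, n = 7 each), a difference of -4.13 (limma, adjusted p = 0.000575). Every mutant, at 35.7 TPM or less, lay below the lowest sibling at 43.9 TPM. The polarity gene pard6a fell from 39.4 to 8.37 TPM (-2.50, limma, adjusted p = 0.0257). This call was lost without mutant epidermis 7 (adjusted p = 0.0618), mutant epidermis 2 (0.0585), sibling epidermis 2 (0.0581) or sibling epidermis 1 (0.0505). In gill tjp2b stood at 63.5 ± 20.0 (SD, n = 5) and 19.7 ± 24.4 TPM (SD, n = 8), a difference of -2.56 that did not pass (limma, adjusted p = 0.0827). It passed with a pseudocount of 10 (0.0489), with quantile normalization (0.0384) and without mutant gill 4 (0.0390).

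Of 11 tested adherens junction partners, 1 rose in each tissue and none fell, with medians of -0.15 in epidermis and 0.68 in gill. It was vcla, encoding vinculin, which links cadherin complexes under tension to actin. In epidermis it stood at 0.440 TPM or less in siblings and at 0.475 to 133 TPM in mutants, and in gill at 2.68 TPM or less in siblings and at 1.75 to 124 TPM in mutants. The difference was 4.31 in epidermis (limma, adjusted p = 0.00125) and 4.67 in gill (limma, adjusted p = 0.00233). The groups overlapped in gill only. Among siblings only sibling gill 1 reached 1 TPM of vcla, while every mutant gill library did. The gene could thus enter the test through the groups where it is high. Both calls held in every fit without 1 library.

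Desmosomes, the junctions that anchor keratin filaments, had 14 tested genes, of which 2 rose and 1 fell in mutant epidermis and none passed in gill; the medians were 0.95 and 0.65. Periplakin, a linker of keratin, is encoded by ppl, which rose from 9.13 ± 9.57 to 213 ± 147 TPM (SD, n = 7 each), a difference of 4.38 (limma, adjusted p = 0.00180). Its partner in mammals is envoplakin, encoded by evpla, which fell from 28.4 ± 12.8 to 3.05 ± 6.30 TPM (SD, n = 7 each), a difference of -3.67 (limma, adjusted p = 0.00193). Without mutant epidermis 6 the mutant mean of evpla was 0.702 TPM. With each library shifted to the same median the difference was -2.49 and did not pass (limma, adjusted p = 0.0572). The plaque gene pkp3a rose from 130 ± 61.3 to 458 ± 214 TPM (SD, n = 7 each; 1.83, limma, adjusted p = 0.0188), and its call was lost without sibling epidermis 6 (adjusted p = 0.0559). The other 11 tested desmosome genes did not pass in epidermis.

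Of 10 tested genes around Epcam, 1 fell in epidermis and none passed in gill, with medians of -0.81 and 0.42. It was spint2, which encodes a membrane inhibitor of serine proteases. In mammals its loss lets matriptase cleave Epcam. The level of spint2 was 460 to 860 TPM in sibling epidermis and 11.6 to 137 TPM in mutant epidermis, without overlap. The means were 620 ± 146 and 75.3 ± 47.1 TPM (SD, n = 7 each), a difference of -3.45 (limma, adjusted p = 6.17e-06). In gill the means were 455 ± 147 (SD, n = 5) and 314 ± 153 TPM (SD, n = 8), a difference of -0.67 that did not pass (limma, adjusted p = 0.539). The difference between tissues was not read for genes outside the claudins, cadherins and epcam.

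Of 11 tested genes of epithelial regulators, 3 rose and none fell in mutant epidermis, and 1 rose and 1 fell in gill. The medians were 0.75 and 0.49. This list is not made up of transcription factors only, since it also holds esrp1 and esrp2. The AP-2 gene tfap2a rose in both, from 19.2 ± 19.2 to 200 ± 115 TPM in epidermis (SD, n = 7 each; 3.88, limma, adjusted p = 0.00264) and from 0.578 ± 0.316 (SD, n = 5) to 82.8 ± 61.0 TPM (SD, n = 8) in gill (4.93, limma, adjusted p = 0.000854). In epidermis the epithelial Ets gene elf3 rose from 235 to 599 TPM (1.30, limma, adjusted p = 0.0340) and grhl2a, a Grainyhead gene whose mammalian counterpart controls E-cadherin and claudins, from 7.23 to 68.0 TPM (3.39, limma, adjusted p = 0.0480). The calls of elf3 and grhl2a held in 5 and 4 of 14 fits without 1 library, with adjusted p-values of 0.0799 without sibling epidermis 6 and of 0.102 without mutant epidermis 1. The Krüppel-like gene klf4 fell in gill from 136 to 42.3 TPM (-3.36, limma, adjusted p = 0.0439), with a mutant mean of 18.6 TPM without mutant gill 2. That call held in 3 of 13 fits without 1 library, and the adjusted p was 0.121 without sibling gill 4.

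Genes tied to the change from epithelial to mesenchymal cells were mostly not detected. The list holds factors that in mammals repress E-cadherin, and also vim, which is not such a factor. Of 15 in the table, 1 passed the filter and it was called in neither tissue. The sum over the list was 61.2 TPM at most in any library, and 7 to 11 of the 15 were listed at 0 in every library of a group. Only snai1a had a group mean over 10 TPM, and only in sibling epidermis. There the sum over the list ran from 0.157 to 42.4 TPM (median 0.446).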

How the data were processed

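The authors deposited 1 table of TPM values with a column for each library. STAR, featureCounts and DESeq2 are named in the submitters' processing notes, without versions, as are the builds GRCz11 and danRer11. Annotation, strand setting and the rule for reads that match several genes were not found in the sources used here, so levels of paralogues and overlapping genes are uncertain. TPM keeps no depth, so no count model, interval or detection floor was computed; an exact 0 is reported as listed at 0.

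limma 3.58.1 in R 4.3.3 (lmFit, eBayes with trend) was run on log2(TPM + 1) for the 13465 genes that reached 1 TPM in 5 or more libraries. One fit took in all 27 libraries, with a mean for each group and 23 residual degrees of freedom. Tests were two-sided, with Benjamini-Hochberg adjustment over all these genes. On simulated normal values with known shifts the fit returned estimates close to the changes set, which a linear fit does by design. The simulation held no on-and-off values, so it does not cover genes such as cdh11, cdh2 and cldnf. Figures were drawn with matplotlib 3.10.9.

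The members and all gene lists were chosen with earlier results of these data known. Named members are epcam and cdh1, those called in a mutant comparison or the interaction, the 6 highest per group, and up to 8 called between tissues. Up to 3 called genes per junction list and mutant comparison were added, with spic and mpeg1.1 as checks.

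Alternatives were pseudocounts of 0.1 and 10, no filter, 5 TPM in 10 libraries as the filter, quantile normalization, centring each library on its median, fitting a comparison's libraries alone, a covariate for detected genes, a block for the replicate number, and leaving out each library. A fit without the 3 libraries lowest in detected genes, and centring on the 1733 genes at 1 TPM or more in every library, were added after seeing the data. All 60 identifiers matched the reference table of gene names, which gives another symbol for 14. Neighbours were read from the assembly GRCz12tu, where 53 members were found. Sequences and coordinates were not used here.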

Additional observations from a re-analysis of the deposited data

Results flagged for a closer look

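In 17 of 100 combinations of a named gene and a group, the highest or lowest library lay farther from its nearest neighbour, relative to the range of the group on the log2(TPM + 1) scale, than Dixon's 95% critical value allows. Chance gives about 1 in 20 for normally distributed values, which many of these groups do not hold. The gene cdh2 in sibling gill, listed at 0 in 4 of 5 libraries, would be flagged for any other value in the remaining library. The count of 17 is therefore not read as an excess.

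Among the cadherins, cdh1 was at 382 TPM in sibling gill 2, above the next library at 261 TPM. The gene cdh28 was at 0 TPM in mutant gill 8, below the next at 2.15 TPM, and cdh30 at 21.1 TPM in mutant epidermis 4, above the next at 1.26 TPM. The gene cdh2 was flagged for 0.907 TPM in sibling epidermis 5, for 17.1 TPM in mutant epidermis 6 and for 0.115 TPM in sibling gill 4, each the highest of its group. Sibling epidermis 6 was the lowest of its group for cldnh at 155 TPM and for cldn7b at 326 TPM.

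Among the partner genes, vcla was highest in sibling gill 1 at 2.68 TPM and lowest in mutant gill 2 at 1.75 TPM. Mutant gill 2 was also the lowest for pkp3a at 12.8 TPM. The lowest library of mutant epidermis was number 7 for ppl at 6.93 TPM, and number 5 for tfap2a at 27.4 TPM and for elf3 at 151 TPM. The highest library of mutant gill for evpla was number 8 at 15.4 TPM. Sibling gill 1 was the lowest of its group for klf4 at 24.9 TPM and for mpeg1.1 at 12.2 TPM.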

How the results depend on the processing

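In epidermis 4 members were called, and 8 under median centring (6 higher, 2 lower). In gill 2 were called, and 1 with a pseudocount of 10, with no filter, with the stricter filter, with the gill libraries alone and with the replicate number as a block, but 4 under median centring. Among mutants 2 members differed between tissues, and 4 with a pseudocount of 0.1 and 4 with the replicate block. Without 1 library in turn, the counts were 3 to 4 in epidermis, 1 to 2 in gill, 0 between sibling tissues, 2 to 3 between mutant tissues and 0 to 1 for the interaction. No called value changed sign under any alternative; cdh28 in both tissues, and cdh30 in epidermis, stayed called under all of them, and cdh1 in epidermis under 10 of 11. The call of cdh11 was lost with a pseudocount of 10 (adjusted p = 0.0843), with no filter (0.0806), with detected genes as a covariate (0.0667) and without the 3 libraries with the fewest detected genes (0.168). That of cdh2 in gill was lost with a pseudocount of 10 (0.120), with no filter (0.0984), with the gill libraries alone (0.166), with the replicate block (0.0530) and with centring on genes present in every library (0.0710). Of 11 alternatives, the call of evpla held in 10, those of pkp3a, elf3 and grhl2a in 9, that of pard6a in 7 and that of klf4 in 4. The stricter filter leaves out cdh2 and cdh11; the cause of the other changes was not tested. Deviations of same-numbered libraries from their group means were weakly correlated, at 0.00998 to 0.0608 in epidermis and -0.0308 to 0.0739 in gill. Between the tissues of mutants the correlations were 0.0301 to 0.0776, and between those of siblings -0.00686 to 0.0678. All 7 correlated best with their own number in epidermis and between mutant tissues. In gill 2 of 5 did, and between sibling tissues 3 of 5. A small shared deviation by number is therefore present in epidermis and between mutant tissues, and its source was not tested. The main fit does not take the numbers as pairs, and the replicate block is given as an alternative. TPM keeps no depth, so the precision of members near 1 TPM is unknown.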
